A study of Mus musculus with 4 samples.

Results

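The beta subunits of the sodium pump (Atp1b1, Atp1b2 and Atp1b3) and 3 cation-chloride cotransporters (Slc12a2, Slc12a5 and Slc12a7) were described in laser-captured spinal motor neurons. They were chosen by symbol, as 6 of the 27189 gene entries measured in each library, and each symbol had 1 entry. In every library their levels fell in the same order. Of the 5 that could be tested, 0 passed the test between mice with wild-type SOD1-YFP and mice with G85R SOD1-YFP. Only 0.642% of the 11530 genes tested passed it, so 0 of 5 does not set these genes apart. Over the 4 libraries Atp1b1 averaged 1818 RPKM and Slc12a5 169, whereas Slc12a7 rested on 4 to 16 estimated reads in a library. RPKM is the read number scaled to transcript length and to the mapped reads of the library. As a level set per length it lets different genes be compared, but it depends on the length used and on read placement.

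The mice were 3 months old, on a C57BL/6J x SJL/J background, and every one carried a human SOD1 genomic fragment joined to YFP, a fluorescent protein. The wild-type SOD1-YFP group (strain 592) had 2 libraries and the G85R SOD1-YFP group (strain 737), whose SOD1 carries a glycine-to-arginine mutation of inherited amyotrophic lateral sclerosis, had 2. Each library came from the Azure B-stained ventral horn cell bodies of 1 mouse. No mouse without a transgene was sequenced. Each genotype is 1 transgenic strain, and the G85R strain carries far more copies of its transgene, so genotype, strain and copy number cannot be told apart. Cells with large fluorescent aggregates were left uncaptured in the G85R mice, so the G85R libraries describe the neurons without them.

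The sodium pump exports sodium and imports potassium at the cost of ATP. Its catalytic alpha subunit needs a beta subunit to fold and reach the membrane, and small FXYD proteins tune it. The gradients it builds drive the Slc12 cotransporters: Slc12a2 (NKCC1) carries sodium, potassium and chloride into cells, and Slc12a5 (KCC2) and Slc12a7 (KCC4) carry potassium and chloride out. In mature neurons KCC2 keeps chloride low, which lets GABA and glycine, the inhibitory transmitters of the spinal cord, hyperpolarise the motor neuron.

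The reads were 75 bases long, so whether a read can be placed on a single gene of a family depends on how much the paralogs share. The longest stretches shared by the 2 closest pairs are given here for that reason, in capitals, 5′ to 3′ on the transcript strand, inside coding sequence of build NCBIM37. Atp1b1 and Atp1b2 shared 19 bases. The printed windows of 29 bases lie at chr1:166368654-166369441 and chr11:69415109-69415938, both on the minus strand and both across an exon junction. Slc12a5 and Slc12a7 shared 26 bases. Their printed windows of 30 bases lie at chr2:164800435-164800464 and chr13:73926041-73926070, both on the plus strand within 1 exon.
Atp1b1: tgcacTGGCAAGAGAGATGAAGATaagga
Atp1b2: tgtgtTGGCAAGAGAGATGAAGATgctga
Slc12a5: tgTACCTGCCGTGCCTGCAGAACATCTTtg
Slc12a7: tcTACCTGCCGTGCCTGCAGAACATCTTgg
Both runs were shorter than a read. The coding sequences of Atp1b1 and Atp1b2 were identical at 66.4% of aligned bases, and those of Slc12a5 and Slc12a7 at 75.8%. Scanning every 75-base window of 1 transcript per gene found none with an exact copy elsewhere in the genome for Atp1b1 (0 of 2348), Atp1b2 (0 of 2768), Slc12a5 (0 of 5600) and Slc12a7 (0 of 5057). Atp1b3 differed, with 174 of 1752 windows (9.93%) copied elsewhere, so its level is uncertain by the reads that fall there. How reads with several locations were counted is not given in the sources used here.

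Atp1b1 had the highest level of the 6 genes and ranked 6 of 27189 entries by mean RPKM. It was followed by Slc12a5 at rank 390, Atp1b2 at 1284, Atp1b3 at 2536, Slc12a2 at 6463 and Slc12a7 at 14985. Neighbours in this order never overlapped in RPKM over the 4 libraries. The RPKM of Atp1b1 was 9.72 to 11.6 times that of Slc12a5, and Slc12a5 was at 2.46 to 2.85 times Atp1b2. The smallest step was Atp1b2 over Atp1b3, at 1.74 to 2.37 times within a library. Slc12a2 then lay below Atp1b3 by a factor of 3.36 to 4.50, and above Slc12a7 by a factor of 43.2 to 162.

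**Figure D1:**
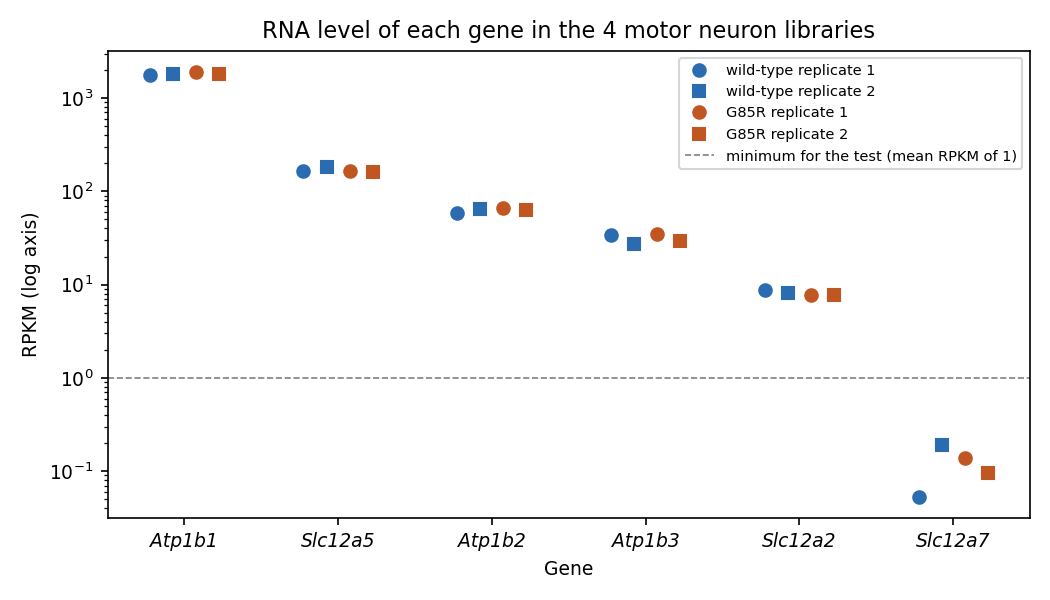
RPKM (log axis) of each gene in the 2 wild-type (blue) and 2 G85R (orange) libraries, circles for replicate 1 and squares for replicate 2, with the dashed line at the mean RPKM of 1 needed for the test. The 4 points of a gene lie close together for 5 genes, whose highest library was 1.07 to 1.26 times the lowest, and spread 3.55-fold for Slc12a7, whose RPKM stayed below 0.2.

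Atp1b1 encodes the beta-1 subunit, the common beta subunit of neurons, and lies at chr1:166367398-166388486 on the minus strand (6 exons). Its RPKM was 1781 and 1787 in the wild-type libraries, compared with 1902 and 1801 in the G85R libraries, from 123008 to 134496 estimated reads. Both G85R libraries were higher than both wild-type libraries, but G85R replicate 2 stood above the nearest wild-type library by less than the 2 G85R libraries differed. The mean was 1784 ± 4.43 (SD, n = 2) in wild-type and 1852 ± 71.1 (SD, n = 2) in G85R motor neurons. On log2(RPKM + 0.1) the G85R difference was 0.05 (SE 0.09), with an adjusted p of 0.902 from limma over 11530 genes. Its 95% interval ran from 0.900 to 1.20-fold. Limma sets such an interval from the spread of all tested genes as well as that of the gene itself.

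Atp1b2 encodes the beta-2 subunit, known in glia as an adhesion molecule, and lies at chr11:69413238-69419444 on the minus strand (7 exons). Its RPKM was 58.3 and 65.1 in wild-type versus 66.9 and 62.5 in G85R libraries. The genotypes overlapped, since wild-type replicate 2 was higher than G85R replicate 2. The means were 61.7 ± 4.78 and 64.7 ± 3.15 RPKM (SD, n = 2 each), and the log2 difference was 0.07 (SE 0.11, limma adjusted p = 0.896). The interval ran from 0.879 to 1.25-fold.

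Atp1b3 encodes the beta-3 subunit and lies at chr9:96233099-96264766 on the minus strand (7 exons), where the annotated gene Gm17562 overlaps it on the other strand at 96255023 to 96255119. Its RPKM was 33.6 and 27.5 in wild-type against 34.6 and 29.4 in G85R libraries. Replicate 1 was the higher in each genotype, and the genotypes overlapped. The means were 30.5 ± 4.31 and 32.0 ± 3.68 RPKM (SD, n = 2 each), a log2 difference of 0.07 (SE 0.14, limma adjusted p = 0.926) with an interval of 0.833 to 1.33-fold. It varied most of the 5 tested genes between mice of 1 genotype, with a within-genotype SD of 0.19 on the log2 scale, and 71.3% of tested genes varied less. For Atp1b1 that SD was 0.04, and only 7.46% of tested genes varied less.

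Slc12a5, the neuronal chloride exporter KCC2, lies at chr2:164786316-164825228 on the plus strand (26 exons), and Gm11459 overlaps its start on the same strand (164786302 to 164788252). Its RPKM was 166 and 184 in wild-type versus 164 and 161 in G85R libraries, from 24986 to 32511 estimated reads. Both G85R libraries were lower than both wild-type libraries, and wild-type replicate 2 was the one that stood apart. The means were 175 ± 12.5 and 163 ± 2.65 RPKM (SD, n = 2 each). The log2 difference was -0.11 (SE 0.10, limma adjusted p = 0.787), with an interval of 0.791 to 1.09-fold.

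Slc12a2, the chloride importer NKCC1, lies on chromosome 18 from 58038332 to 58106475 on the plus strand (27 exons), and 0 of its 6446 windows had an exact copy elsewhere. Its RPKM was 8.67 and 8.19 in wild-type against 7.69 and 7.80 in G85R libraries. Here too both G85R libraries were lower, though the wild-type libraries differed from each other by more than the gap between the genotypes. The means were 8.43 ± 0.340 and 7.75 ± 0.0751 RPKM (SD, n = 2 each), a log2 difference of -0.12 (SE 0.12, limma adjusted p = 0.809) with an interval of 0.756 to 1.12-fold. Of all tested genes, 48.8% had a smaller absolute difference than Slc12a2, the tested member with the largest one.

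Slc12a7, the broadly expressed exporter KCC4, lies at chr13:73870542-73954191 on the plus strand (24 exons). Its RPKM was 0.0533 and 0.190 in wild-type versus 0.139 and 0.0962 in G85R libraries, which corresponds to an estimated 4, 16, 10 and 7 reads. The wild-type libraries held both the lowest and the highest value. The means were 0.121 ± 0.0963 and 0.117 ± 0.0300 RPKM (SD, n = 2 each). It did not reach the mean RPKM of 1 that the test required. With the minimum lowered to 0.1 RPKM, its log2 difference was 0.04 (SE 0.47), with a 95% interval from -1.08 to 1.15 and a limma adjusted p of 0.989. That interval does not exclude a change of 2-fold either way. The few reads, the 2 mice in each genotype and a pseudocount close to its RPKM were not separated. In wild-type replicate 1, 1 read was worth 0.0127 RPKM for Slc12a7 and 0.0116 for Atp1b2. The transcripts used here hold 5131 and 2842 bases, so the Slc12a7 RPKM rests on a shorter length than its transcript. The window scan and the level of Slc12a7 may therefore concern different gene models, and ratios to Slc12a7 depend on that length.

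Limma called 0 of the 5 tested members at an adjusted p under 0.05, and 0 of them had an unadjusted p under 0.05. Over all tested genes 0.642% were called (74 of 11530, 31 higher and 43 lower in G85R), and 11% had an unadjusted p under 0.05. In the likelihood ratio test of a log-linear model, which treats RPKM as a Poisson count, 0 of 6 members were called, against 0.228% of all entries. The RPKM of Slc12a7 rounded to 0 in every library, so this test could not call it. Other entries near 0 also count among all entries in that share. The genotypes did not overlap for 3 of the 5 members tested (Atp1b1, Slc12a2 and Slc12a5). Over all tested genes 41.2% did not overlap. The median log2 difference was 0.05 over the 5 members and -0.02 over all tested genes.

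Set against each other within a library, the importer and its opposing exporter overlapped between genotypes. Slc12a5 was at 19.2 and 22.5 times the RPKM of Slc12a2 in wild-type and at 21.4 and 20.6 times in G85R libraries. The wild-type libraries held both extremes. The mean log2 ratio of Slc12a2 to Slc12a5 was -4.38 ± 0.16 in wild-type libraries (SD, n = 2) and -4.39 ± 0.04 in G85R libraries (SD, n = 2), a difference of -0.02 with an exact two-sided permutation p of 1. With 2 libraries in each genotype this test cannot give a p below 0.333.

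Slc12a4, which encodes the exporter KCC1, lay between 1.29 and 1.43 RPKM over the 4 libraries. Slc12a5 was at 3116 and 970 times Slc12a7 in wild-type against 1185 and 1669 times in G85R libraries, ratios that rest on the few Slc12a7 reads (log2 difference of Slc12a7 to Slc12a5 0.31, exact permutation p = 1).

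The beta pool was nearly all Atp1b1. Its share of the summed beta RPKM was 95.1% in both wild-type libraries, beside 94.9% and 95.1% in G85R. Atp1b2 held 3.11% and 3.46% in wild-type versus 3.34% and 3.30% in G85R, and Atp1b3 held 1.79% and 1.46% in wild-type against 1.73% and 1.56% in G85R. All 3 shares overlapped between genotypes, and each had an exact permutation p of 1. For Atp1b2 and Atp1b3 the wild-type libraries held both the lowest and the highest share.

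**Figure D2:**
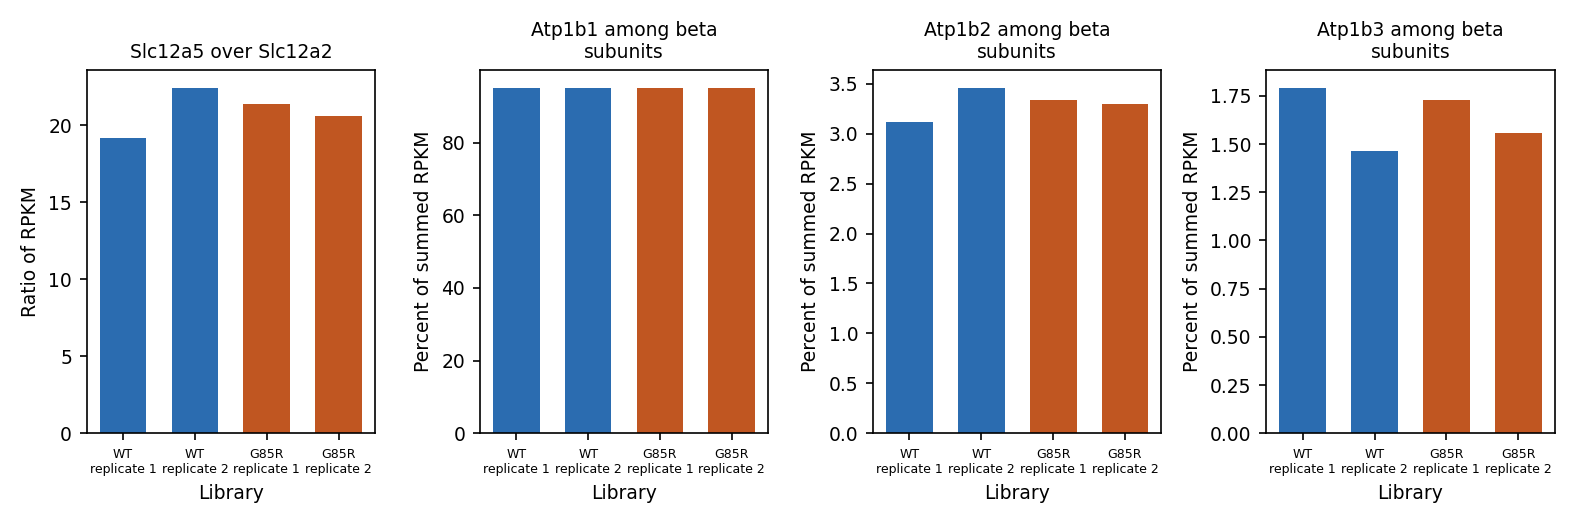
Bars from 0 give, for each library (wild-type blue, G85R orange), the RPKM of Slc12a5 over Slc12a2 and the percent of the summed beta subunit RPKM held by Atp1b1, Atp1b2 and Atp1b3, each on its own scale. Each bar is 1 library, so no error is drawn, and the wild-type libraries bracket the G85R libraries for the ratio of the cotransporters (19.2 to 22.5), the Atp1b2 share (3.11% to 3.46%) and the Atp1b3 share (1.46% to 1.79%).

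The partners of these genes were read from lists of 41 genes, of which 39 were found, 28 were tested and 0 were called by limma or by the log-linear test. Limma called 0.642% of all tested genes, and the log-linear test called 0.228% of all entries. Of the 28 tested, 15 were higher and 13 lower in the G85R mean, and the median log2 difference was 0.01. The genotypes did not overlap for 12 of the 28, beside 41.2% of all tested genes. An unadjusted p under 0.05 was reached by 3 of the 28, Fxyd6, Wnk4 and Stk39, beside the 11% of all tested genes that reached it. The pump relatives Atp1b4, Atp4a, Atp4b and Atp12a did not reach the minimum level. Slc12a9 and Klhl3 were not analysed here.

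Among the FXYD regulators, Fxyd7, a brain-enriched pump modulator, was at 483 and 520 RPKM in wild-type versus 506 and 595 in G85R libraries (log2 difference 0.13, limma adjusted p = 0.756). Fxyd6 had the largest difference of the 4 tested, at 4.91 and 3.60 in wild-type against 3.32 and 2.13 in G85R (log2 -0.64, limma adjusted p = 0.419). Fxyd4 was listed at 0 in all 4 libraries.

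WNK kinases sense chloride and act through Stk39 (SPAK) and Oxsr1 (OSR1), which switch Slc12a2 on and the potassium-chloride exporters off. Of the 10 kinases and partners tested, 3 were higher and 7 lower in the G85R mean, beside 5218 higher and 6312 lower of all tested genes. The genotypes did not overlap for 5 of the 10, beside 41.2% of all tested genes. Stk39, the highest of the list in the mean over the 4 libraries though below Cab39 in both G85R libraries, was at 116 and 106 RPKM in wild-type versus 88.9 and 93.5 in G85R libraries. Its difference of -0.28 (SE 0.10) had a limma adjusted p of 0.373. Wnk4 was at 5.18 and 6.15 in wild-type against 2.20 and 3.91 in G85R libraries, with a difference of -0.92 (SE 0.26, limma adjusted p = 0.259). That was the lowest adjusted p of the 28 genes, and it moved with the library left out. Without G85R replicate 2 the Wnk4 difference was -1.32 (limma adjusted p = 0.00900), and without G85R replicate 1 it was -0.52 (limma adjusted p = 0.517). Wnk1, the widely expressed kinase, was at 52.5 and 44.4 in wild-type versus 39.7 and 41.0 in G85R libraries (log2 -0.26, limma adjusted p = 0.487).

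Of the anion exchangers, bicarbonate cotransporters and CLC channels and exchangers, 12 were tested, 7 were higher and 5 lower in the G85R mean, and 0 had an unadjusted p under 0.05, which 11% of all tested genes had. Slc4a3, the neuronal chloride-bicarbonate exchanger AE3, was highest at 61.9 and 78.2 RPKM in wild-type against 60.1 and 67.1 in G85R libraries (log2 difference -0.13, limma adjusted p = 0.820). The remaining member of the Slc12 family tested, Slc12a8, was at 5.74 and 6.15 in wild-type versus 7.54 and 6.82 in G85R libraries (log2 0.27, limma adjusted p = 0.525).

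**Figure D3:**
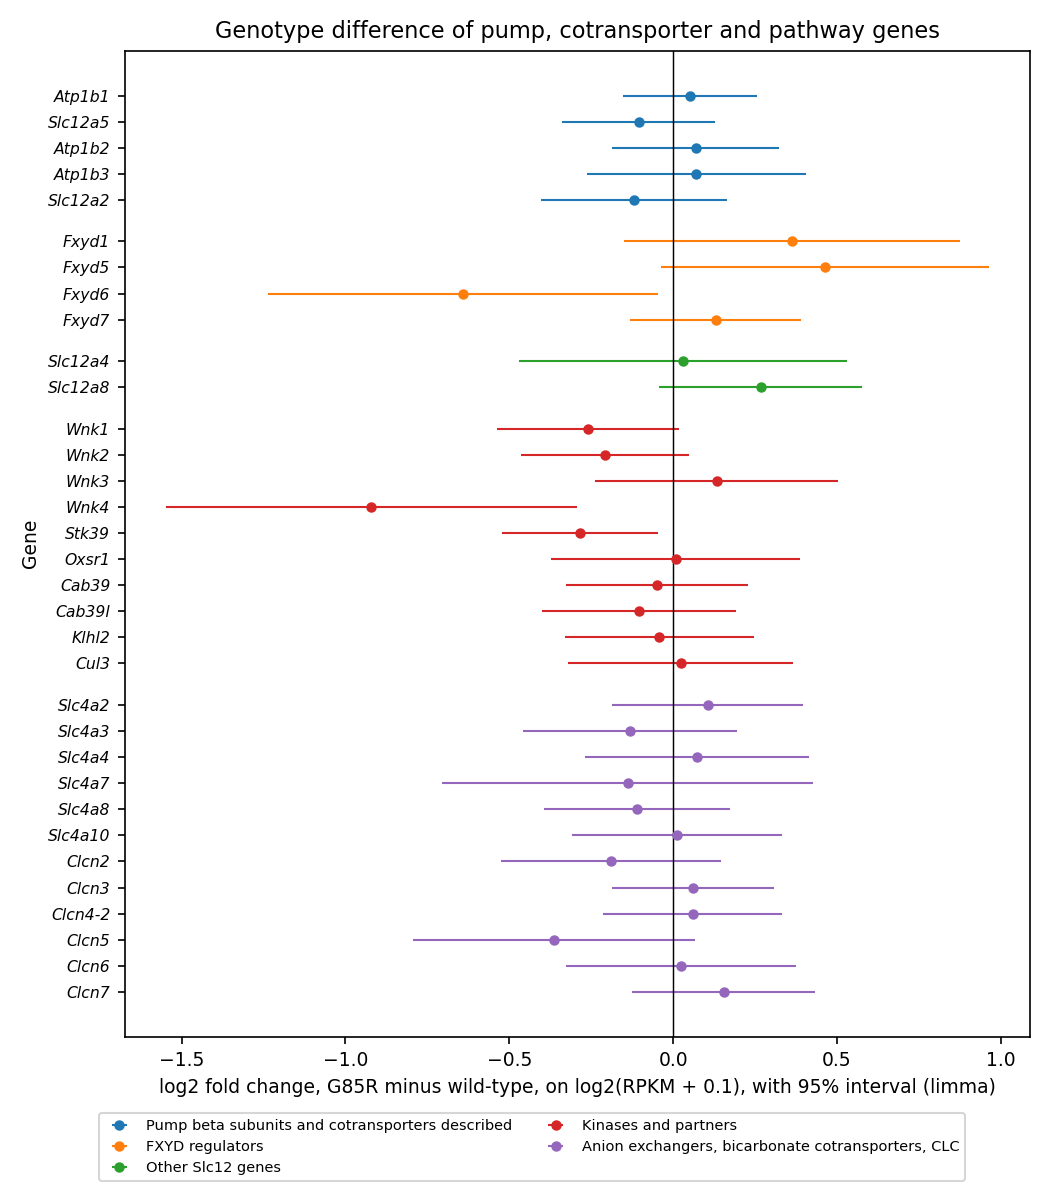
Points give the limma log2 difference, G85R minus wild-type, on log2(RPKM + 0.1), with lines for the 95% interval, for the 5 members tested (blue) and the 28 tested genes of the pathway lists (other colours). The intervals of the 5 members cross 0, and of those 28 genes the intervals of Fxyd6, Wnk4 and Stk39 do not, though their adjusted p values were 0.419, 0.259 and 0.373.

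The shape over the 4 libraries was compared for the 2 members with the largest absolute difference, as the Euclidean distance between centred log2 values. Closest to Slc12a2 were Pde6d (distance 0.0156), Recql5 (0.0173) and 3222402P14Rik (0.0190), while 595 tested genes lay within 0.1 of it and the median distance was 0.278. Closest to Slc12a5 were Pdrg1 (0.0174), Ankrd27 (0.0179) and Zer1 (0.0189), with 489 genes within 0.1 and a median distance of 0.285. Pdrg1 was at 46.7 and 50.9 RPKM in wild-type against 46.0 and 44.6 in G85R libraries, with wild-type replicate 2 the highest library, as for Slc12a5. Pdrg1 was picked on these same values, so that match follows from the choice.

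Fewer cells of a type and less RNA per cell cannot be told apart in these pooled captures, so the cell type markers were read beside the genes above. Motor neuron markers were present in every library, with a summed RPKM of 2472 and 2731 in wild-type versus 2205 and 2575 in G85R libraries. Nefh, the heavy neurofilament, was at 1085 and 1068 in wild-type against 1002 and 1106 in G85R. Of the 8 motor neuron markers, 1 was higher and 7 lower in the G85R mean. Chat, which makes acetylcholine, was at 66.3 and 81.2 in wild-type versus 49.6 and 65.5 in G85R libraries.

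Markers of other cells were also present. Astrocyte markers summed to 904 and 894 RPKM in wild-type against 1292 and 990 in G85R libraries, and 7 of 8 were higher in the G85R mean. Aldoc, the astrocyte marker at the highest level, was at 458 and 443 in wild-type versus 671 and 458 in G85R libraries. Together with S100b, at 412 and 414 in wild-type against 498 and 483 in G85R, it made up most of each astrocyte sum. Whether the RNA of Aldoc and S100b came from astrocytes was not tested. Gfap, which marks reactive astrocytes, was at 11.5 and 17.1 in wild-type against 91.9 and 28.4 in G85R. Microglia markers summed to 15.6 and 17.8 in wild-type versus 41.0 and 19.2 in G85R, and 6 of 6 tested were higher. G85R replicate 1 held most of both excesses. Oligodendrocyte markers summed to 866 and 810 in wild-type against 1031 and 795 in G85R libraries. Endothelial markers summed to 11.8 and 12.0 in wild-type versus 10.7 and 10.0 in G85R. Interneuron markers summed to 186 and 191 in wild-type against 217 and 201 in G85R libraries, led by Slc32a1, the inhibitory vesicular transporter, at 81.8 to 93.6. Red blood cell genes summed to 1.82 and 2.10 in wild-type versus 11.4 and 10.8 in G85R. Only 2 of the 4 listed were found, and Hbb-b1 held most of that sum. Among all markers limma called Hbb-b1 (adjusted p = 0.00173), beside 0.642% of all tested genes. The log-linear test called 1 motor neuron marker and 2 astrocyte markers, beside 0.228% of all entries. None of the marker genes found was at 0 in all libraries.

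Atp1b2 and Slc12a2 are also expressed by glia. Their levels in G85R replicate 1, the library with the most glial marker RNA, were 66.9 and 7.69 RPKM, the highest of the 4 libraries for Atp1b2 and the lowest for Slc12a2. Atp1b1 and Atp1b3 were also highest in that library, at 1902 and 34.6 RPKM. The part of the marker differences in the members' levels was not tested.

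**Figure D4:**
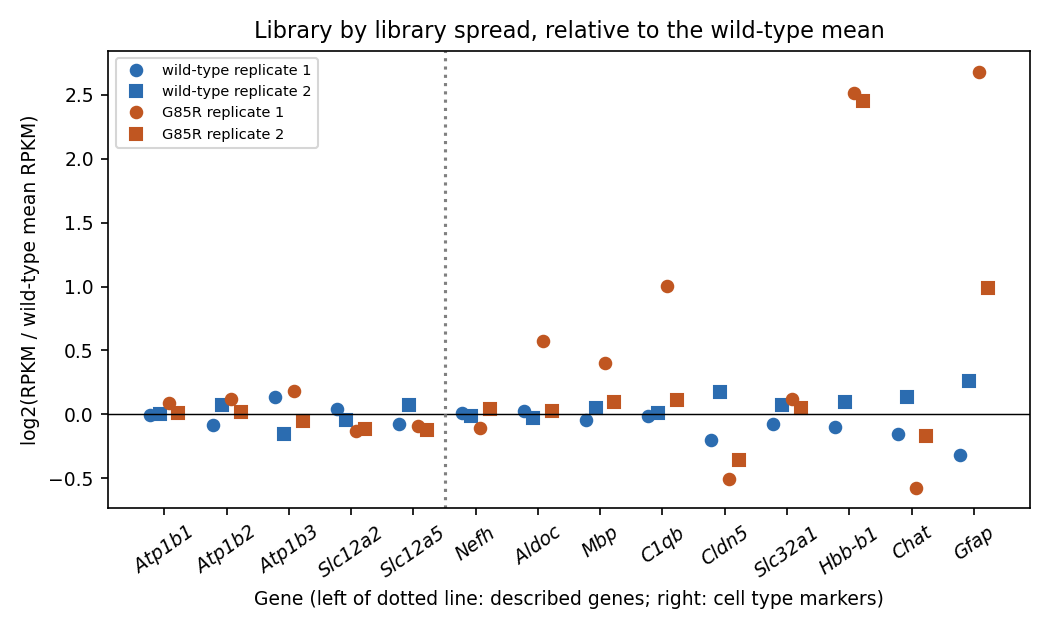
Log2 of each library's RPKM over the wild-type mean, for the 5 tested members (left of the dotted line) and for the marker at the highest level of each list together with Chat and Gfap (right), with wild-type in blue, G85R in orange, circles for replicate 1 and squares for replicate 2. The 5 members stay between -0.15 and 0.18, while Gfap reaches 2.68 in G85R replicate 1 and Hbb-b1, a red blood cell gene with near-identical copies, reaches 2.51.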

How the data were processed

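Motor neuron cell bodies of 4 mice, 2 in each genotype, were laser-captured and their polyA RNA sequenced. Per the submitters' processing notes, reads were mapped with Bowtie 0.12.3 to mm9, and the study's methods name Cufflinks for quantification. The deposited values are RPKM, given by the authors as calculated and with 1 read added. The difference is the RPKM of 1 read (median over genes 0.0195 to 0.0226 in a library), by which RPKM was divided to estimate reads. These summed to 21560318 to 25186594 in a library.

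The genotype difference came from limma 3.58.1 run under R 4.3.3 (linear fit, eBayes with trend) on log2(RPKM + 0.1) for the 11530 entries with a mean RPKM of at least 1, with Benjamini-Hochberg adjustment and a threshold of 0.05. The pseudocount understates changes of low genes. The study's log-linear likelihood ratio test was an alternative, run on rounded RPKM with 1 read added. Ratios and shares were compared by exact two-sided permutation. Both kinds of fit were tested on simulated data. Other values used Python 3.11.15, numpy 2.4.6, pandas 2.3.3, scipy 1.17.1, Biopython 1.88 and matplotlib 3.10.9. Positions and sequences are from GENCODE vM1 on NCBIM37, which is the same assembly as mm9.

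Members and lists were chosen with earlier results of these data known. Named are the members, the highest gene of each pathway list and those past the threshold, the 3 genes closest in shape to each of the 2 members with the largest difference, and the marker at the highest level of each list. Outside that rule, named after their values were seen, are Fxyd4, Fxyd6, Wnk1, Wnk4, Slc12a4, Cab39, Chat, Gfap and S100b. Atp1b4, Atp4b and Atp12a, below the minimum level, are also named outside it. A symbol with several entries is stood for by its highest. Alternatives were other pseudocounts, minimum levels and scalings, a replicate block, other eBayes settings, voom on estimated reads, and leaving out each library. Some planned genes, ratios and shares are not reported here.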

Additional observations from a re-analysis of the deposited data

How the results depend on the processing

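Over 85 alternative values of the 5 tested members, 0 had an adjusted p under 0.05 and 4 changed sign, and 0 members were called under any alternative. Quantile normalization turned Atp1b1 to -0.0540 and the log2 ratio of Slc12a2 to Slc12a5 to 0.0687. Leaving out each library, where the lone library of a genotype is assumed to vary like the other genotype, moved the difference of Atp1b2 between -0.0101 and 0.148, Atp1b3 between -0.0726 and 0.215, Slc12a4 between -0.0245 and 0.0850, and Slc4a3 between -0.300 and 0.0373. The same left the log2 ratio of Slc12a2 to Slc12a5 between -0.129 and 0.0982, and of Slc12a7 to Slc12a5 between -0.536 and 1.15. The share of Atp1b1 moved between -0.153 and 0.0628 percentage points, of Atp1b2 between -0.143 and 0.205, and of Atp1b3 between -0.151 and 0.180. Without a change of sign, Slc12a5 moved between -0.178 and -0.0328, Fxyd6 between -0.950 and -0.331, Wnk1 between -0.379 and -0.139, and Wnk4 between -1.32 and -0.519. The cause was not tested.

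Of all tested genes, 17 were called at a minimum mean RPKM of 5, 112 with no filter, 39 after quantile normalization, 49 by eBayes without trend, and 78 to 188 without 1 library (188 without G85R replicate 2). Among the pathway genes 0 to 1 was called without 1 library, the 1 being Wnk4 without G85R replicate 2.

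Replicate numbers are shared between genotypes, and the study displays ratios by replicate number, but no source used here says that a number marks a shared litter, batch or day. The correlation of the deviations was 0.22. With a replicate block, limma called 527 of 11530 tested genes, 1 of 28 tested pathway genes (Wnk4, adjusted p = 0.0118) and 0 of 5 members. With 4 libraries that fit takes little of the spread from each gene's own values and most from all tested genes.

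With 2 mice in each genotype, the intervals of the 5 tested members together span 0.756 to 1.33-fold, and Slc12a7 rests on 4 to 16 estimated reads.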
